A study of Homo sapiens with 3 samples.

Results

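The aminoacyl-tRNA synthetases of H660 cells were examined in RNA-seq libraries of cells treated with DMSO, 2.5 μM JG231 or 5 μM JG231 for 24 h. H660 cells come from a human prostate cancer of neuroendocrine type with no genetic change named in the labels, and JG231 is an allosteric inhibitor of the chaperone HSP70, with its vehicle DMSO as the control. Each condition had 1 library, so no standard deviation and no p-value exists for any gene, and differences compare these 3 libraries. The members were 36 genes chosen by symbol, 20 for cytosolic and 16 for mitochondrial enzymes, among 58735 genes in the deposited table, and all 36 were found under their older symbols.

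Aminoacyl-tRNA synthetases join each amino acid to its tRNA and so supply the ribosome with charged tRNA. Most amino acids have one enzyme for the cytosol and another, also encoded in the nucleus, for the mitochondrial matrix, while GARS and KARS each serve both compartments from a single gene. Several cytosolic enzymes sit together in the multisynthetase complex. Many cytosolic synthetase genes are well described targets of ATF4, a transcription factor made when translation initiation is slowed by phosphorylation of eIF2α, for example when amino acids run short or unfolded proteins build up. ATF4 and its partners of the C/EBP family bind a composite DNA element with the core TGATGNAA.

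The sequences around this core are shown because they are the matches found in the promoter windows of the synthetase genes. RefSeq promoter windows, 250 bases before to 50 after a transcript start on GRCh38.p14, were matched for 30 of 36 members, and DARS, LARS, VARS, YARS, AARS2 and VARS2 had no window. The core was present, on either strand, in 7 of 16 cytosolic and 1 of 14 mitochondrial members, against 4.46% of the 27305 genes with a window. The matches are printed with 20 bases on each side, 5′ to 3′ on the strand that reads TGATGNAA, with the core in capitals.
AARS: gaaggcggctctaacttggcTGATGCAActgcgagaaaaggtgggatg
CARS: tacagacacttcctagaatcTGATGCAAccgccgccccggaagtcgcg
GARS: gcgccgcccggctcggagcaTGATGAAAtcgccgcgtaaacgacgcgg
IARS: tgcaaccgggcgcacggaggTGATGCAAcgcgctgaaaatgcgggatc
MARS: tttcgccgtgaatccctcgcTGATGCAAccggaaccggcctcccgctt
NARS: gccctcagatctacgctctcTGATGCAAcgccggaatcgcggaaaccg
TARS: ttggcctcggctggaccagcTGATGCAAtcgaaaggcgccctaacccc
YARS2: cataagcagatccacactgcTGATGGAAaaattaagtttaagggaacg

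The base that the core leaves free was C in AARS, CARS, IARS, MARS, NARS and TARS, A in GARS and G in YARS2. The AARS stretch lies at chr16:70289666-70289713 on the plus strand, that of CARS at chr11:3057398-3057445 on the plus strand, and that of IARS at chr9:92293683-92293730 on the plus strand. The stretches of GARS (chr7:30594825-30594872), MARS (chr12:57488044-57488091), NARS (chr18:57621795-57621842), TARS (chr5:33440947-33440994) and YARS2 (chr12:32756067-32756114) are given on the minus strand. With the first transcribed base as position 0, the core began at -33 in GARS, -13 in IARS, -4 in MARS, -2 in CARS, 2 in TARS and 14 in NARS, so that it lay next to or across the start in these 6 genes. In AARS and YARS2 it lay farther out, at -187 and -197. In GENCODE release 44 the matches of TARS and NARS fall in an exon of the canonical transcript, those of AARS, CARS, GARS, IARS and MARS in an exon of another transcript of the gene, and that of YARS2 outside the gene. The ER stress response element, searched on both strands, was found in none of the 30 members, against 0.0916% of all genes with a window. A match describes the sequence and does not show binding.

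Levels are FPKM, fragments per transcript length and library depth. Changes are log2 of the ratio to DMSO after adding 0.1 FPKM to both values, which understates changes of low genes, and a gene is called higher or lower when it exceeds 1 FPKM in either library and its log2 change is beyond 0.25, with the pseudocount and both limits taken from the study's methods. Genes at 0 in one library and at most 1 FPKM in the other, which the study may have kept, were not tested. The steps in the deposited values put the depth at about 16.1 M (mega) fragments for DMSO, 20.4 M for 2.5 μM and 24.04 M for 5 μM. Intervals of a change are exact binomial 95% intervals of the fragments, which cover counting error only. As a measure of spread in place of replicates, the scaled median absolute deviation of log2 changes from 2.5 to 5 μM JG231 was taken over the 500 genes nearest in mean FPKM, and was 0.19 to 0.63 for the members other than SARS2. The sample labels name the cells prostatic adenocarcinoma, while all 7 neuroendocrine markers examined were above 1 FPKM in every library and the 6 luminal markers, among them KLK3, were at most 0.32 FPKM. The leukocyte and endothelial markers PTPRC and PECAM1 were listed at 0, while of the fibroblast markers COL1A1 had 0.823, 0.745 and 1.27 FPKM, higher at 5 μM, and COL1A2 was at most 0.066 FPKM. Of the neuroendocrine markers, 6 were lower at 2.5 μM, against 43.4% of all genes, and 7 at 5 μM, against 45.1%, while INSM1 was higher at 2.5 μM by 0.29 on the log2 scale. Their part in the synthetase changes was not tested. Mitochondrially encoded genes took 39.8% of the summed FPKM in the control and 24.1% and 28.8% with JG231, so that the share left to all other genes was larger in the JG231 libraries. Rescaling to a sum that leaves out mitochondrially encoded genes and small RNAs brought the median log2 change of expressed genes to -0.28 at the lower and -0.38 at the higher dose, in place of 0.00 and -0.01. After this rescaling INSM1 was not called higher at 2.5 μM. Of the neuroendocrine markers 6 were then lower at 2.5 μM, against 56.2% of all genes, and 7 at 5 μM, against 60.1%. With the trend on transcript length removed INSM1 was at 0.18 at 2.5 μM. COL1A1 was not called higher at 5 μM after rescaling.

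In DMSO the transcripts of cytosolic enzymes stood well above those of mitochondrial enzymes. The median level was 22.2 FPKM for the cytosolic and 5.49 FPKM for the mitochondrial genes, and the ranges overlapped, from 4.96 to 60.5 FPKM and from 0.346 to 24.95 FPKM. NARS, the asparaginyl enzyme, had the highest level of all members in DMSO, followed by AARS, the alanyl enzyme, and FARSA, the catalytic subunit of the phenylalanyl enzyme. Among the mitochondrial members IARS2 was first and RARS2 next. The lowest cytosolic level was that of HARS, the histidyl enzyme, below its mitochondrial counterpart HARS2. The length that FPKM was divided by is not given for genes with several transcripts. Canonical transcripts of HARS and HARS2 have 1948 and 2468 bp, and all their exons joined 14155 and 3719 bp. The order of genes therefore holds on the FPKM scale only. Some neighbours in the order of levels lay close together, such as EPRS, MARS, SARS and GARS between 31.4 and 34.8 FPKM. The spread, taken within genes between the doses, gives no error for this order. The summed level of the cytosolic enzymes was 515 FPKM in the control, 1123 at the lower dose and 1157 at the higher dose, while that of the mitochondrial enzymes was 120 FPKM, 135 and 137. The ratio of the sums was 4.29 in DMSO and 8.35 and 8.43 at the 2 doses. At 5 μM AARS and SARS, the seryl enzyme, held the first places, and WARS, the tryptophanyl enzyme, had moved from place 17 to place 8 of the 20 cytosolic genes. Since bulk RNA was measured, a change in the level per cell and a change in the mix of cells cannot be told apart.

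**Figure D1:**
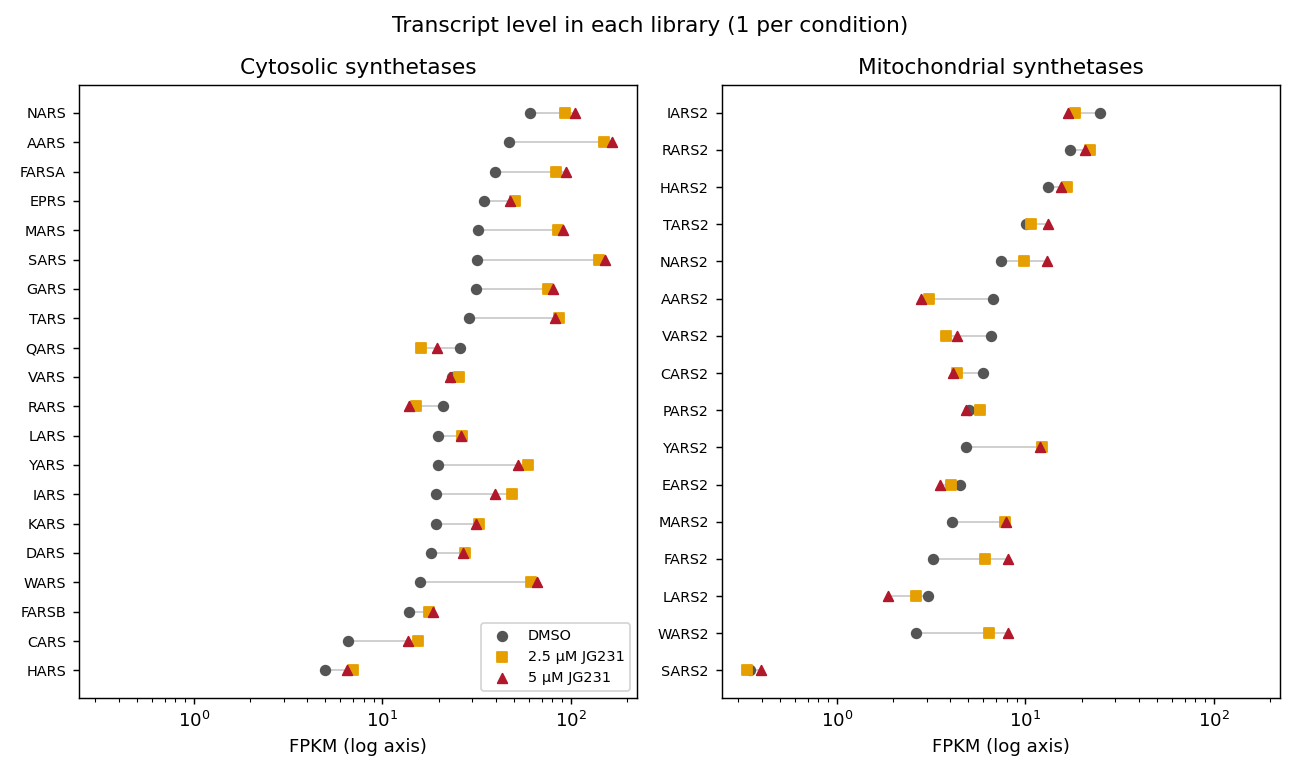
FPKM of each member on a log axis in the DMSO, 2.5 μM and 5 μM JG231 libraries, 1 point per library, ordered by the DMSO level within each compartment. SARS, WARS and AARS show wide gaps between DMSO and both doses, and QARS and RARS lie to the left of their DMSO points at both doses.

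The cytosolic synthetases were mostly higher in both JG231 libraries. Of 20 genes, all of which passed the expression filter, 17 were higher at both doses, against 27.9% of 15164 genes tested in both comparisons. QARS and RARS were lower at both doses, against 38.6%, and VARS was within the threshold. By more than 1 on the log2 scale, 10 of 20 were higher at both doses, against 8.24%. The median log2 change was 0.92 at both 2.5 μM and 5 μM, beside 0.05 and 0.02 over 11200 protein-coding genes with a mean of at least 1 FPKM. Genes with a high mean FPKM were higher in general. The mean is taken over all 3 libraries, so it itself favours genes that were higher with JG231. Over the 1392 protein-coding genes between 23.1 and 67.0 FPKM, the interquartile range of the cytosolic members' mean levels, the medians were 0.38 and 0.45 at the lower and higher dose, and 62.1% of them were higher at 5 μM. Rescaled without mitochondrially encoded and small RNA genes, 12 of 20 cytosolic members were higher at both doses against 16.4% of all genes, and 2 were lower against 52.9%.

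SARS (ENSG00000031698, chromosome 1, 109213918 to 109238182), the seryl enzyme, had 31.8 FPKM in the DMSO library, 142 with 2.5 μM JG231 and 153 with 5 μM. Both JG231 values were far above DMSO and close to each other, with log2 changes of 2.16 (95% interval 2.06 to 2.26) and 2.26 (2.17 to 2.36) against a spread of 0.20. WARS (ENSG00000140105, chromosome 14, 100333790 to 100376805), the tryptophanyl enzyme, which is also known as an interferon-induced gene, stood at 15.9 FPKM in DMSO, 61.3 at the lower dose and 66.2 at the higher. The doses were again near each other, with log2 changes of 1.94 (1.83 to 2.07) and 2.05 (1.94 to 2.18). AARS (ENSG00000090861, chromosome 16, 70251983 to 70289707), the alanyl enzyme, had 47.3, 151 and 166 FPKM in the same order. Its log2 changes were 1.67 (1.61 to 1.73) and 1.81 (1.75 to 1.87), and it had the highest FPKM of the members at both doses. These 3 genes had the highest changes of the 36 members at 5 μM.

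A second set of 7 cytosolic genes was higher by more than 1 on the log2 scale at both doses as deposited. Rescaled without mitochondrially encoded and small RNA genes, GARS, FARSA, CARS and IARS were at 0.97, 0.86, 0.67 and 0.65 at 5 μM, below 1, and 6 of the 20 cytosolic genes were past 1 at both doses in place of 10, against 4.39% of all genes. TARS, the threonyl enzyme, had 28.9, 86.6 and 82.5 FPKM, log2 changes of 1.58 and 1.51. MARS, the methionyl enzyme, had 32.3, 86.1 and 91.1 FPKM, log2 changes of 1.41 and 1.49. Its exons share 355 bases with DDIT3, the gene of the stress factor CHOP on the opposite strand, which went from 24.8 FPKM to 338 and 397. No source says if fragments were assigned by strand, and the part of DDIT3 fragments in the MARS value was not tested. YARS, the tyrosyl enzyme, had 19.8, 59.4 and 52.5 FPKM, log2 changes of 1.58 and 1.40. GARS, the glycyl enzyme of both compartments, had 31.4, 76.2 and 80.2 FPKM, log2 changes of 1.28 and 1.35. In all 4 genes the doses differed by less than the spread of genes of like expression. FARSA, the catalytic subunit of the phenylalanyl enzyme, had 39.6, 83.9 and 93.9 FPKM, log2 changes of 1.08 and 1.24. CARS, the cysteinyl enzyme, had 6.58, 15.6 and 13.6 FPKM, log2 changes of 1.23 and 1.04. IARS, the isoleucyl enzyme, had 19.3, 49.0 and 39.5 FPKM, log2 changes of 1.34 and 1.03. IARS was the cytosolic member that lost most between the doses, by 0.31 on the log2 scale against a spread of 0.24.

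The other 7 cytosolic genes that were higher at both doses as deposited had smaller changes. NARS, the asparaginyl enzyme, had 60.5, 93.8 and 106 FPKM, log2 changes of 0.63 and 0.81. KARS, the lysyl enzyme of both compartments, had 19.2, 32.6 and 31.3 FPKM, log2 changes of 0.76 and 0.70. DARS, the aspartyl enzyme, had 18.2, 27.5 and 26.9 FPKM, log2 changes of 0.59 and 0.56. All 3 were beyond 2 times their spread at both doses. EPRS, which joins both glutamate and proline to their tRNAs, had 34.8, 50.8 and 47.6 FPKM, log2 changes of 0.55 and 0.45. LARS, the leucyl enzyme and a leucine sensor for mTORC1, had 19.9, 26.5 and 26.2 FPKM, log2 changes of 0.41 and 0.40. FARSB, the partner subunit of FARSA, had 13.9, 17.7 and 18.6 FPKM, log2 changes of 0.35 and 0.42. The 2 subunits of the phenylalanyl enzyme, which work as one protein complex, had changes of 1.24 for FARSA and 0.42 for FARSB at 5 μM, with canonical transcripts of 1811 and 6761 bp. With the trend on length removed, their changes were 0.90 and 0.79 at 5 μM, less apart than their spreads of 0.21 and 0.26, and 0.84 and 0.54 at 2.5 μM. HARS, the histidyl enzyme, had 4.96, 7.0 and 6.47 FPKM, and its log2 changes of 0.49 and 0.38 were near or within its spread of 0.39. With the trend on length removed HARS was at 0.27 at 2.5 μM and 0.066 at 5 μM, and in the rescaled libraries at 0.20 at 2.5 μM. At 5 μM these 7 changes ran from 0.38 to 0.81. Rescaled without mitochondrially encoded and small RNA genes, NARS and KARS kept their call at both doses, while DARS, EPRS, LARS, FARSB and HARS were at 0.18, 0.07, 0.02, 0.04 and 0.005 at 5 μM, within the threshold.

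QARS (ENSG00000172053, chromosome 3, 49095932 to 49105130), the glutaminyl enzyme, had 25.7 FPKM in the control and 16.1 and 19.5 in the JG231 libraries. Both JG231 values were below DMSO, with log2 changes of -0.67 (-0.81 to -0.54) and -0.40 (-0.53 to -0.28) against a spread of 0.27, and the higher dose had the smaller change. RARS (ENSG00000113643, chromosome 5, 168486451 to 168519301), the arginyl enzyme, had 21.1, 15.1 and 13.8 FPKM. Its log2 changes were -0.48 (-0.64 to -0.33) and -0.60 (-0.76 to -0.46) against a spread of 0.26. VARS, the valyl enzyme, which binds elongation factor 1, had 23.4, 25.5 and 23.0 FPKM, log2 changes of 0.13 and -0.02, and at 5 μM its counting interval ran from -0.12 to 0.07. QARS and RARS were lower and VARS lay within the spread, 0.24, although all 3 had DMSO levels in the range of the genes that were higher.

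**Figure D2:**
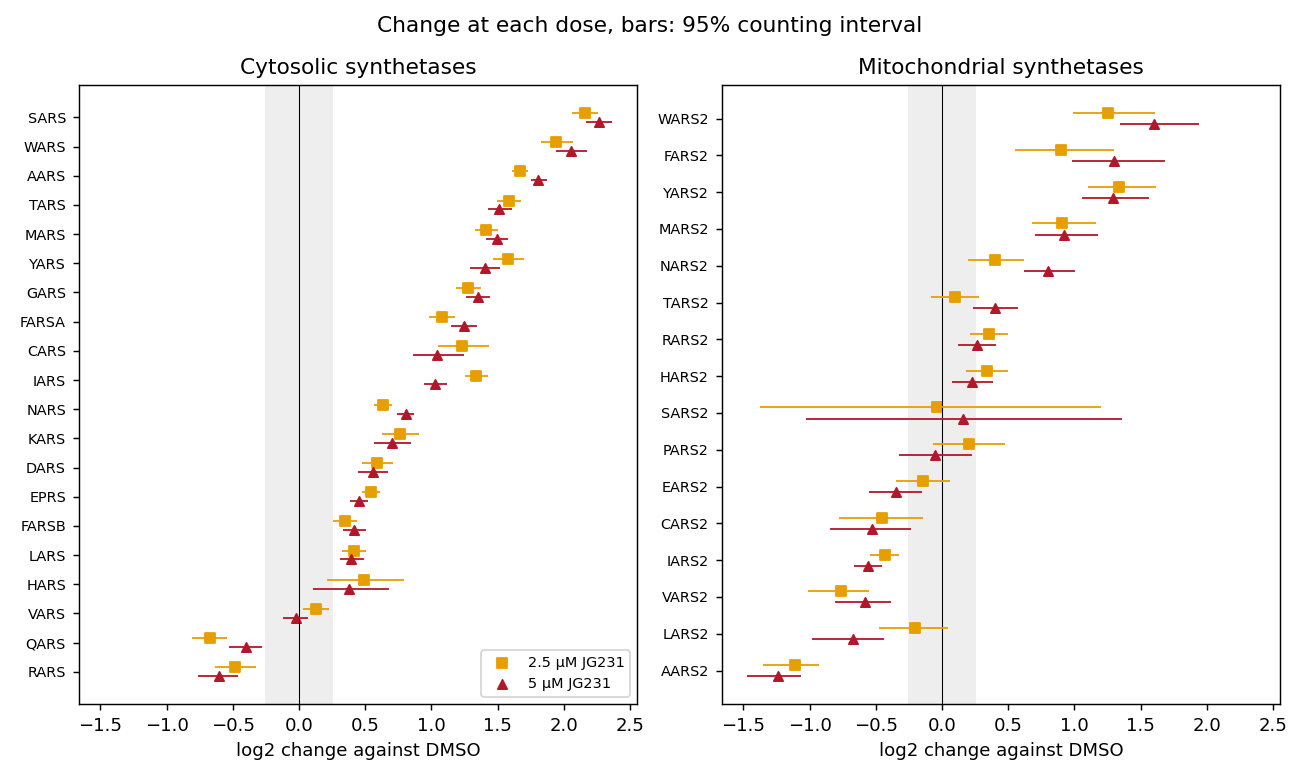
Log2 change of each member against DMSO at 2.5 μM (squares) and 5 μM (triangles), with 95% counting intervals as bars and the threshold of 0.25 shaded. The cytosolic genes run from RARS, -0.60 at 5 μM, to SARS, 2.26, and the mitochondrial genes fall on both sides of 0.

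Members of the multisynthetase complex had smaller median changes than the other cytosolic enzymes, and the difference was not tested. The ranges overlapped, from -0.60 to 1.49 in the complex and from -0.02 to 2.26 outside it at 5 μM. The 8 genes of the complex, EPRS, IARS, LARS, QARS, MARS, KARS, RARS and DARS, showed medians of 0.57 and 0.50 on the log2 scale at the lower and higher dose, with 6 higher and 2 lower at each dose, against 36.4% and 43.4% of all genes at 2.5 μM and 36.5% and 45.1% at 5 μM. Rescaled without mitochondrially encoded and small RNA genes, 5 of 8 were higher and 2 lower at 2.5 μM, against 24.6% and 56.2%. At 5 μM 3 were then higher and 2 lower, against 22.9% and 60.1%, with DARS, EPRS and LARS at 0.18, 0.07 and 0.02. The 12 cytosolic genes outside it had medians of 1.25 and 1.30, with 11 higher and none lower, and VARS within the threshold. In the rescaled libraries 9 of them were higher at each dose, against 24.6% of all genes at 2.5 μM and 22.9% at 5 μM, and VARS was lower at 5 μM, at -0.40, as were 60.1% of all genes. As deposited, both lower cytosolic members belonged to the complex, while IARS and MARS within it were higher by more than 1. A list of 12 ATF4 targets was drawn from general knowledge with earlier results of these data known, so its count is no independent test. It holds AARS, CARS, EPRS, GARS, IARS, LARS, MARS, NARS, SARS, TARS, WARS and YARS. All 12 were higher at both doses as deposited, against 27.9% of all genes, with a median of 1.38 at each. In the rescaled libraries 10 of 12 were higher at both doses, against 16.4%, with EPRS and LARS not called at 5 μM. The other 8 cytosolic members had 5 higher and 2 lower at each dose and medians of 0.42 and 0.40, with FARSA beyond 1 as deposited. After rescaling none of these 8 was beyond 1. At 2.5 μM 3 were then higher and 2 lower, against 24.6% and 56.2% of all genes, and at 5 μM 2 were higher and 3 lower, against 22.9% and 60.1%, so that the share that was higher at 5 μM was near that of all genes. By the structural class of the catalytic domain, the medians were 1.23 for 9 class I and 0.92 for 10 class II cytosolic genes at 2.5 μM, and 1.03 and 1.02 at 5 μM. At each dose as deposited 6 class I genes were higher and 2 lower, and 10 class II genes were higher and none lower. Of all genes 36.4% were higher and 43.4% lower at 2.5 μM, and 36.5% and 45.1% at 5 μM. After rescaling DARS, FARSB and HARS of class II and LARS of class I were not called at 5 μM, and VARS of class I was lower.

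The 7 cytosolic members with the core TGATGNAA in the window had log2 changes of 0.81 to 1.81 at 5 μM, with a median of 1.35, and of 0.63 to 1.67 at 2.5 μM, with a median of 1.34. The 9 with a window but no match ranged from -0.60 to 2.26 at 5 μM, with a median of 0.45, and from -0.67 to 2.16 at 2.5 μM, with a median of 0.55. The ranges overlapped, since SARS and WARS had no match in these windows and the highest changes of all, and RARS and QARS had no match and were lower. YARS2, the mitochondrial member with a match, had the third highest change of its compartment at 5 μM. Among expressed genes with a window other than the members, the 221 with the core had a median of 0.02 on the log2 scale at 5 μM, and 16.3% were higher by more than 1, beside 0.03 and 12.6% for the 9428 without it. At 2.5 μM the medians were 0.21 with the core and 0.04 without it, and 14.5% and 10.8% were higher by more than 1.

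**Figure D3:**
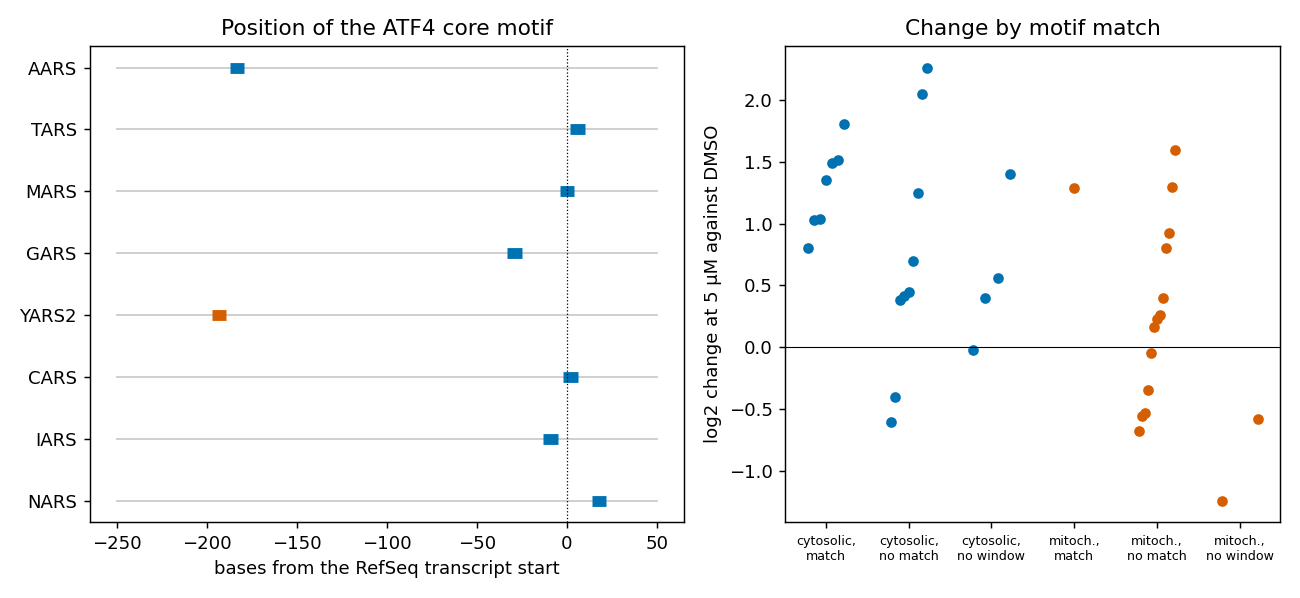
Left, position of the core motif relative to the RefSeq transcript start in the 8 members that hold it. Right, log2 change at 5 μM against DMSO by compartment and by whether the gene has a window with a match, a window without one or no window, 1 point per gene: the 7 cytosolic genes with a match lie between 0.81 and 1.81, and the 9 without one between -0.60 and 2.26.

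The mitochondrial synthetases did not move as one group. Of 16 genes, 15 passed the expression filter. At both doses 6 were higher and 4 were lower, against 27.9% and 38.6% of all genes. At 2.5 μM 7 were higher and 4 lower, against 36.4% and 43.4% of 15746 genes, and at 5 μM 7 were higher and 6 lower, against 36.5% and 45.1% of 15765. By more than 1, 2 were higher at 2.5 μM, against 12.9%, and 3 at 5 μM, against 14.7%. By the same margin AARS2 alone was lower at 2.5 μM, against 21.7%, at 5 μM, against 24.3%, and at both, against 17.9%. Their median change on the log2 scale was 0.15 at the lower and 0.19 at the higher dose, and it was below 0, at -0.14 and -0.15, when the libraries were rescaled without mitochondrially encoded and small RNA genes, and -0.05 at the higher dose with the trend on transcript length removed. In the rescaled libraries 4 were higher and 6 lower at both doses, against 16.4% and 52.9% of all genes. For the 2971 protein-coding genes between 4.67 and 10.4 FPKM, the interquartile range of these members' mean levels, the medians were 0.04 and -0.02.

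WARS2 (ENSG00000116874, chromosome 1, 119031216 to 119140654), the mitochondrial tryptophanyl enzyme, had 2.62 FPKM in DMSO and 6.39 and 8.12 with JG231. Its log2 changes were 1.26 (0.99 to 1.61) and 1.60 (1.35 to 1.94) against a spread of 0.39, the highest of the mitochondrial members at 5 μM. YARS2 (ENSG00000139131, chromosome 12, 32727490 to 32755897), the tyrosyl enzyme, had 4.82, 12.3 and 11.9 FPKM, log2 changes of 1.34 (1.10 to 1.62) and 1.29 (1.06 to 1.57). FARS2 (ENSG00000145982, chromosome 6, 5261044 to 5829192), which charges phenylalanine as a single chain, had 3.23, 6.09 and 8.09 FPKM. Its log2 changes of 0.90 and 1.30 differed between the doses by 0.40, about its spread of 0.39. MARS2, the methionyl enzyme encoded by a single exon, had 4.10, 7.77 and 7.86 FPKM, log2 changes of 0.91 and 0.92. NARS2, the asparaginyl enzyme, had 7.41, 9.84 and 13.0 FPKM, log2 changes of 0.40 and 0.80, and in the rescaled libraries its change at 2.5 μM was 0.12, within the threshold. In these 5 genes both JG231 values lay above DMSO, and WARS2, YARS2, FARS2 and MARS2 were beyond 2 times their spread at both doses.

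RARS2, the arginyl enzyme, had 17.3, 22.1 and 20.7 FPKM, with changes of 0.35 and 0.26 near its spread of 0.27, and in the rescaled libraries it was at 0.064 and -0.12, not called at either dose. HARS2, the histidyl enzyme, had 13.2, 16.7 and 15.5 FPKM, log2 changes of 0.34 and 0.23, and passed the threshold at 2.5 μM only. TARS2, the threonyl enzyme, had 10.05, 10.8 and 13.3 FPKM, log2 changes of 0.10 and 0.40, and passed it at 5 μM only. After rescaling both single-dose calls were lost, with HARS2 at 0.048 at 2.5 μM and TARS2 at 0.022 at 5 μM, and that of HARS2 was also lost with the trend on length removed, at 0.19. PARS2, the prolyl enzyme, had 5.01, 5.77 and 4.83 FPKM, within the threshold at both doses. SARS2, the seryl enzyme, had 0.346, 0.334 and 0.399 FPKM, about 11 fragments in DMSO, and its counting interval at 5 μM ran from -1.03 to 1.36. Of the SARS2 exonic bases, 48.2% are shared with a second gene model on the same strand, ENSG00000269547, which was listed at 0 in all 3 libraries. How fragments in shared bases were counted is not given in the sources used here, and any loss of them from the SARS2 level was not tested. With the fragments counted, a difference in SARS2 was not detectable.

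AARS2 (ENSG00000124608, chromosome 6, 44298731 to 44313347), the mitochondrial alanyl enzyme, had 6.78 FPKM in DMSO and 3.08 and 2.81 with JG231. Its log2 changes of -1.11 (-1.35 to -0.93) and -1.24 (-1.47 to -1.07) were the lowest of all 36 members, against a spread of 0.53, while its cytosolic counterpart AARS was among the highest. VARS2, the valyl enzyme, had 6.55, 3.82 and 4.34 FPKM, log2 changes of -0.76 and -0.58. IARS2, the isoleucyl enzyme, had 24.95, 18.5 and 16.9 FPKM, changes of -0.43 and -0.56 with a spread of 0.27. CARS2, the cysteinyl enzyme, had 5.98, 4.35 and 4.12 FPKM, log2 changes of -0.45 and -0.53. These 4 genes were lower at both doses, and AARS2 was beyond 2 times its spread at each. LARS2, the leucyl enzyme, had 3.05, 2.63 and 1.87 FPKM, and EARS2, the glutamyl enzyme, had 4.49, 4.06 and 3.52 FPKM. Both were lower at 5 μM only, with log2 changes of -0.67 and -0.34 there, and of -0.21 and -0.14 at 2.5 μM. In the rescaled libraries both were lower at 2.5 μM too, at -0.49 and -0.43, and PARS2 was lower at 5 μM. With the trend on length removed EARS2 was at -0.12 at 5 μM and within the threshold.

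For 13 amino acids the cytosolic and the mitochondrial enzyme are separate genes with one member each, and the ratio of their FPKM was compared between libraries. This ratio is taken within a library and so does not depend on the scaling between libraries. The ratio was higher than in DMSO for 12 of 13 pairs at 2.5 μM and 11 of 13 at 5 μM. Its median change, with the pseudocount, was 0.68 on the log2 scale at the lower dose and 0.57 at the higher. The median ratio was 4.11 in the control and 8.05 and 6.21 with JG231. The alanyl pair moved most, from a ratio of 6.98 in DMSO to 48.8 and 58.9. The isoleucyl ratio went from 0.774 to 2.65 and 2.33, and the cysteinyl ratio from 1.10 to 3.58 and 3.31. Whether a ratio lies above or below 1 depends on the lengths used for FPKM. The canonical transcript of IARS has 4483 bp and all its exons joined 22418 bp. The threonyl ratio went from 2.87 to 8.05 and 6.21. In the alanyl, isoleucyl and cysteinyl pairs the cytosolic gene was higher and the mitochondrial gene lower.

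The tyrosyl, asparaginyl and histidyl ratios changed little at 5 μM, by 0.11, 0.00 and 0.15 on the log2 scale, and both genes of each pair had changes above 0. The tryptophanyl ratio went from 6.08 to 9.58 and 8.15 although WARS2 was higher too. The methionyl ratio went from 7.88 to 11.1 and 11.6, the leucyl ratio from 6.51 to 10.1 and 14.0, and the valyl ratio from 3.57 to 6.69 and 5.29. The arginyl pair went the other way. Its ratio went from 1.22 in DMSO to 0.684 and 0.668. RARS was lower, and RARS2 was at 0.35 and 0.26 as deposited and not called at either dose after rescaling. The seryl ratio, 91.7 in DMSO and 383 at 5 μM, rests on the few fragments of SARS2 and on how its shared bases were counted.

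**Figure D4:**
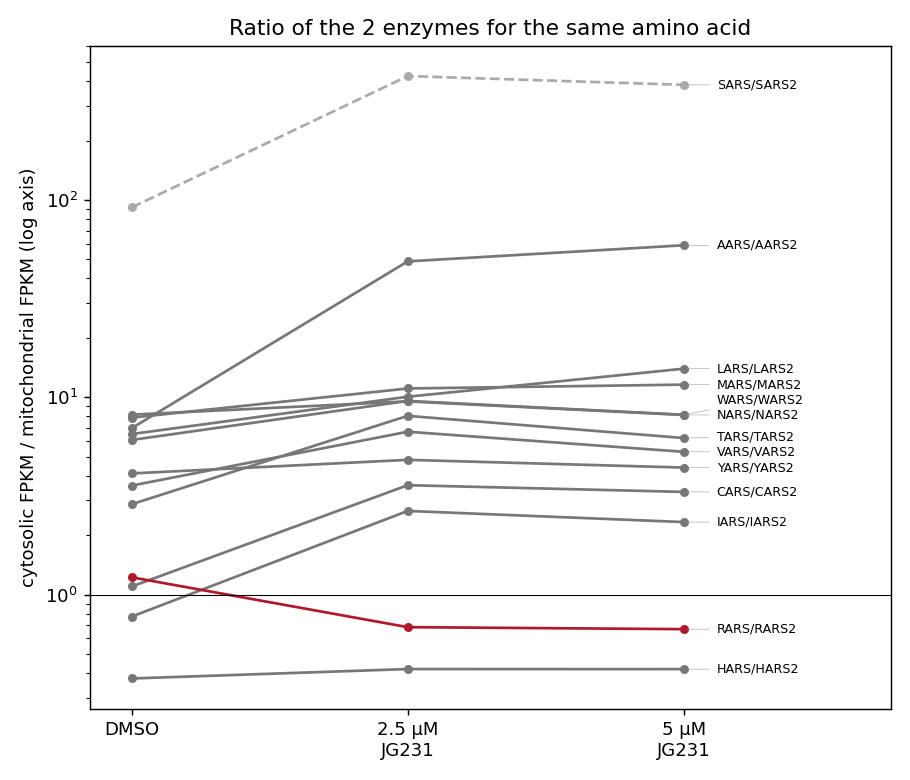
Ratio of cytosolic to mitochondrial FPKM on a log axis for the 13 pairs in each library. At 5 μM 11 lines end above their DMSO value, that of AARS/AARS2 going from 6.98 to 58.9, that of NARS/NARS2 ends at 8.13 beside 8.16 in DMSO, and the red line of RARS/RARS2 goes from 1.22 to 0.668. The dashed line, SARS/SARS2, rests on few SARS2 fragments.

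The difference between the compartments was 0.77 at 2.5 μM and 0.72 at 5 μM as medians on the log2 scale, and 0.73 to 0.77 and 0.68 to 0.90 over the other pseudocounts, the scalings and the removal of the length trend. It was smaller, 0.23 and 0.36, over the 8 cytosolic and 5 mitochondrial members whose exons share no base with another gene model. Canonical transcripts had a median length of 2704.5 bp for the cytosolic and 2619.5 bp for the mitochondrial members, so that lengths were similar. Short transcripts were higher in both JG231 libraries in general. The decile of protein-coding genes with a median length of 2491.5 bp, nearest to the members, had medians of 0.17 and 0.19 at the 2 doses. With the trend on length removed, the cytosolic medians were 0.74 and 0.85, and the mitochondrial ones 0.01 and -0.05.

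**Figure D5:**
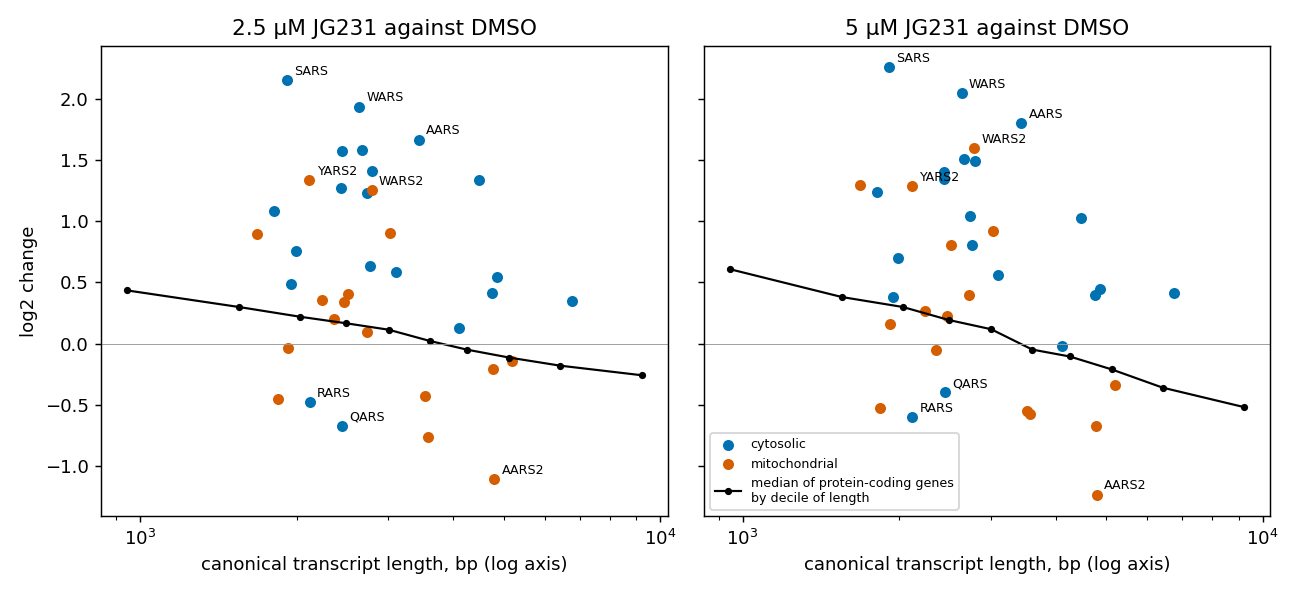
Log2 change against canonical transcript length on a log axis for the cytosolic and mitochondrial members at each dose, with the median change of protein-coding genes in deciles of length as a line. The line falls from 0.61 to -0.52 at 5 μM, and most cytosolic members lie above it.

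Between the doses the members differed little as deposited. At 5 μM against 2.5 μM the median log2 difference was -0.02 for the cytosolic and -0.06 for the mitochondrial members. Of 36 members, 32 differed by no more than the spread, which itself comes from the same dose comparison. Past the threshold of 0.25 as deposited, 5 members were higher at 5 μM, against 26.8% of all genes, and 3 were lower, against 30.1%. By more than 1, none was higher, against 7.47%, and none lower, against 8.09%. The higher ones were QARS, FARS2, NARS2, TARS2 and WARS2, and the lower ones IARS, LARS2 and PARS2. This comparison uses no DMSO library and was called as deposited only. Rescaled to a common sum, the cytosolic median change against DMSO was 0.97 at 2.5 μM and 0.79 at 5 μM. The mitochondrial median was 0.20 and 0.08, so the difference between the doses depends on the scaling.

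Other genes that handle tRNA were read from lists chosen along with the members. Of 7 expressed scaffold and elongation partners, 6 were higher at each dose, against 36.4% and 36.5% of all genes, and none lower, against 43.4% and 45.1%. With the trend on length removed 3 were higher at 2.5 μM, against 32.7%, and 4 at 5 μM, against 32.8%, and in the rescaled libraries 4 were higher, against 24.6% and 22.9% at the lower and higher dose, and 1 was lower, against 56.2% and 60.1%. The list holds AIMP2, a scaffold of the multisynthetase complex, at 17.7, 37.9 and 41.2 FPKM, and AIMP1, another scaffold, at 16.5, 15.4 and 15.5 FPKM. EEF1G, a subunit of elongation factor 1 that cells need, was listed at 0 in all libraries. XPOT, the exporter of tRNA from the nucleus and a described ATF4 target, had 36.1, 112 and 109 FPKM. Of 11 genes of tRNA processing, splicing and export 6 were higher and 2 lower at 5 μM, against 36.5% and 45.1% of all genes. At 2.5 μM 5 were higher and 2 lower, against 36.4% and 43.4%. After rescaling 3 of these were higher and 4 lower at 5 μM, against 22.9% and 60.1% of all genes, and 5 and 4 at 2.5 μM, against 24.6% and 56.2%. Of the editing factors with over 1 FPKM, DTD1, which clears D-amino acids from tRNA, was higher with 3.83, 9.58 and 9.21 FPKM, and DTD2 was lower at 5 μM only. Among 6 mitochondrial partners 2 were higher and 3 lower at 2.5 μM, against 36.4% and 43.4% of all genes. At 5 μM 3 were higher and 1 lower, against 36.5% and 45.1%. There the rescaled libraries had 1 higher and 2 lower, against 22.9% and 60.1% of all genes.

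In the axis of amino acid sensing and ATF4, 9 of 11 genes were higher at each dose, against 36.4% of all genes at 2.5 μM and 36.5% at 5 μM, with medians of 2.27 at 2.5 μM and 2.19 at 5 μM. After rescaling 8 of 11 were higher at each dose, against 24.6% and 22.9%. ATF4 itself had 90.6, 278 and 331 FPKM. ASNS, the asparagine synthetase and a standard ATF4 target, had 0.767, 5.21 and 4.67 FPKM. EIF2AK4, the kinase GCN2 that senses uncharged tRNA, was lower, with 3.16, 2.04 and 1.79 FPKM.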

How the data were processed

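Stranded mRNA libraries of H660 cells were sequenced by the authors, 1 per condition. The methods name HISAT and StringTie, and the submitters' processing notes name HISAT2 and featureCounts with GRCh38; versions and annotation release are not given in the sources used here. The authors deposited FPKM per gene, with no scaling between libraries stated. Of 58735 genes, 58207 matched GENCODE release 44 by identifier.

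Fragments were approximated as FPKM times canonical transcript length divided by the value of 1 fragment, 62.15 FPKM bp in DMSO, 49.1 at 2.5 μM and 41.6 at 5 μM. In single-transcript genes under 50 fragments, 90.3%, 87.9% and 86.4% of values were within 0.1 of a whole number. With 1 library per group no count model or test was applied. All members are named, and some items are not reported here. Members, lists and tests were chosen with earlier results of these data known. Alternatives were pseudocounts of 1 and 0.01, other filters, a threshold of 1, 3 scalings and a lowess correction for transcript length (fraction 0.3). The scripts were checked on simulated data. Computation used statsmodels 0.14.6 for lowess, scipy 1.17.1 for binomial intervals, matplotlib 3.10.9 for plots, and pandas 2.3.3 with numpy 2.4.6 under Python 3.11.15.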

Additional observations from a re-analysis of the deposited data

How the results depend on the processing

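No paired analysis was possible because each group had 1 library, and for the same reason no replicate could be left out. Over the planned pseudocounts, scalings and length correction, 17 cytosolic members kept a change above 0 and 2 below 0 at both doses, and among the mitochondrial members 5 kept one above and 6 one below 0. Rescaled without mitochondrially encoded and small RNA genes, the cytosolic median was 0.63 at 2.5 μM and 0.54 at 5 μM, the mitochondrial median was -0.14 and -0.15, RARS2 was at -0.12 at 5 μM, 6 cytosolic and 0 mitochondrial members in place of 10 and 2 were higher by more than 1 at both doses, and 3704 of all genes were higher at 5 μM in place of 5755, so that the higher genes were 27.6% of those called in place of 44.7%. With the length trend removed, the cytosolic median at 2.5 μM was 0.74, the mitochondrial median at 5 μM was -0.055 and their difference at 5 μM was 0.90. With a mean of at least 5 FPKM, 1 mitochondrial member was lower at each dose in place of 4 and 6, and of all genes 3639 were higher and 1978 lower at 2.5 μM, 3700 and 2076 at 5 μM, a share of 64.1% higher at 5 μM. With no filter 11680 and 12191 genes were lower at 2.5 and 5 μM in place of 6830 and 7112. With a threshold of 1, 10 cytosolic members were higher and 1 mitochondrial member lower at each dose, and of all genes 2039 were higher and 3416 lower at 2.5 μM, 2310 and 3826 at 5 μM. Over the 8 cytosolic and 5 mitochondrial members that share no exonic base with another gene model, chosen after seeing the data, the cytosolic medians were 0.59 and 0.63 at 2.5 and 5 μM, the mitochondrial median was 0.35 at 2.5 μM, and the differences were 0.23 and 0.36. The fewer genes in each count follow from the stricter filter or threshold, and the cause of the other shifts was not tested.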

Other observations

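The neighbours named here were picked with their values in view. GENCODE places another gene over some exonic bases of 23 of 36 members, on the opposite strand for 19, and no source says if fragments were assigned by strand. Some opposite-strand protein-coding neighbours of higher members were higher too. TERF2IP beside KARS had 9.09, 29.7 and 30.4 FPKM in DMSO and at the lower and higher dose, WDR25 beside WARS had 2.18, 6.81 and 7.87 FPKM, and DDX19B beside AARS had 1.83, 4.90 and 4.90 FPKM. S100PBP beside YARS went the other way, with 8.81, 6.18 and 5.11 FPKM, and ING1 beside CARS2, which was lower, had 13.9, 27.8 and 23.1 FPKM. The 3 opposite-strand long noncoding RNAs with over 1 FPKM in DMSO were lower while their partner was higher. FARSA-AS1 had 3.35 FPKM in DMSO and was listed at 0 at both doses, WARS2-AS1 had 3.05, 1.01 and 1.30 FPKM, and GARS1-DT had 1.68, 0.994 and 0.963 FPKM. With 1 library per condition these are values of single libraries.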
